A study of Mus musculus with 12 samples.

Results

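The collagen chain genes are the genes named Col, a number, a, and a second number, each of which encodes 1 α chain of a collagen. On the Mouse430_2 array, 80 probe sets with a single gene symbol carried such a name, Col2a1 and Col10a1 left aside, and they stood for 40 of the 18193 genes with a symbol of their own. For each gene the probe set with the greatest mean over the 12 arrays was read. With a mean of at least 100 as the minimum, 20 of the 40 genes were tested, among 10059 tested genes in all, and the other 20 were described only by their low signals. By type, 8 of 10 fibrillar genes were tested (Col1a1, Col1a2, Col3a1, Col5a1, Col5a2, Col5a3, Col11a1 and Col27a1). Of the network-forming genes, 3 of 6 of type IV (Col4a1, Col4a2 and Col4a5) and 2 of 2 of type VIII (Col8a1 and Col8a2) passed. Of the other types, 3 of 5 of type VI (Col6a1, Col6a2 and Col6a3), 2 of 9 fibril-associated genes (Col12a1 and Col16a1), 1 of 2 multiplexins (Col18a1), Col7a1, and 0 of 4 transmembrane collagens passed.

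The arrays measured total RNA of 6 lines of primary mouse embryonic fibroblasts taken at e14.5, each cultured for 6 h at 37 °C and 5% CO2 at 21% O2 (normoxia) or at 0.1% O2 (hypoxia), with medium equilibrated beforehand. In all 6 lines 1 floxed allele had been exposed to Cre recombinase from an adenovirus at passage 3, after which the cultures were expanded at least 100-fold. The control lines flox2_1 and flox2_2 carried the floxed allele in Ep300, the gene of p300, and the control line flox1 carried it in Crebbp, the gene of CBP. In the triCH1 lines the CH1 domain was deleted from 3 of the 4 alleles of both genes, and the remaining allele was the floxed one. Lines triCH1flox2_1 and triCH1flox2_2 had the deletion in both Crebbp alleles and 1 Ep300 allele (floxed Ep300), and triCH1flox1 had it in both Ep300 alleles and 1 Crebbp allele (floxed Crebbp). This gave 4 groups of 3 arrays. A line and its embryo cannot be told apart, so errors between groups measure the spread between these lines.

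Collagen chains assemble as trimers whose helices are stabilised by hydroxylated prolines, and the enzymes that add these hydroxyl groups use molecular oxygen. Fibroblasts are the main source of the fibrillar collagens of connective tissue, of which type I carries the tensile load, type III forms fine fibrils and type V sets fibril diameter. Type IV collagen forms the network of basement membranes, type VI forms beaded microfilaments around cells, and type VII forms anchoring fibrils below epithelia. CBP and p300 are histone acetyltransferases, and their CH1 domain binds the transactivation domain of HIF-1α, the transcription factor that acts in low oxygen.

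The array labels and cell identity were checked first. Of 4 Crebbp probe sets, the one with the highest mean gave 699 to 882 on the 4 arrays of lines with floxed Crebbp and 922 to 1852 on the other 8. Ep300 gave 207 to 540 in lines with floxed Ep300 and 412 to 836 in the others, with overlap. On line means, 15.8% of all probe sets were likewise lower in both lines with floxed Crebbp. The labels do not say whether these probe sets lie in the floxed exons. Neither probe set separated triCH1 from control lines, so this checks the labels only in part. All 9 fibroblast markers had a mean of at least 100, and Vim lay between 35594 and 50587. Of the endothelial markers 0 of 6 reached a mean of 100, and of the bone markers 0 of 4. The macrophage (2 of 5), epithelial (2 of 6), cartilage (2 of 6) and skeletal muscle (1 of 5) lists reached it in part, with sums over each list of at most 1034 on any array. Among neural and adipocyte markers Nes (mean 1066) and Fabp4 (mean 1136) were well measured. Median signals of the arrays lay between 57.3 and 76.3, and pairwise correlations of log2 signals between 0.936 and 0.962.

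Promoter sequences are shown for the genes whose results are described most closely below. RefSeq's promoter table (build GRCm38.p6) held 17 of the 20 tested genes, and Col1a1, Col5a2 and Col12a1 were not among them. Col4a1 and Col4a2 lie head to head on chromosome 8 (chr8:11198423-11312889, minus strand, and chr8:11312805-11449287, plus strand). Their transcript starts listed with the promoters are at 11312826 and 11312805, so that both transcripts begin in the same stretch, on opposite strands. The interval of Col4a1 extends past this start to 11312889, so the stretch holds for the listed start only. The plus strand of chr8:11312801-11312830 is given with the 22 bases from the one start to the other in capitals.
Col4a1 and Col4a2 starts: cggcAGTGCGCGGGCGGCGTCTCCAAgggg

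The 250 bases before the start follow for Col1a2 (fibrillar), for the neighbouring type VI genes Col6a1 and Col6a2, and for Col7a1, the gene with the lowest triCH1 estimates. They are written 5′ to 3′ on the strand of the gene, with letters searched for on either strand in capitals. These were the CCAAT box, the GC box GGGCGG, the TATA box TATAAA and, as core letters of HIF binding elements, ACGTG or GCGTG. In these windows no match overlapped another.
Col1a2, chr6:4505368-4505617, plus strand: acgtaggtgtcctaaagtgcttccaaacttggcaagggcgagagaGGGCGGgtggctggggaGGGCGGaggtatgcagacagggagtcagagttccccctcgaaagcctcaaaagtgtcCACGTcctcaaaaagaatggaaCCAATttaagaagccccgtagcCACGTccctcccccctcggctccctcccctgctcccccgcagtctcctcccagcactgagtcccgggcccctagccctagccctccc
Col6a1, chr10:76726045-76726294, minus strand: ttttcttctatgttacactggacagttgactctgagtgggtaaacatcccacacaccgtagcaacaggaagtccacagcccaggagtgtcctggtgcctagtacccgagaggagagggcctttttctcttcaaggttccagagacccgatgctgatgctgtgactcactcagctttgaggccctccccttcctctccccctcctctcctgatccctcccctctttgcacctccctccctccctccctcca
Col6a2, chr10:76623631-76623880, minus strand: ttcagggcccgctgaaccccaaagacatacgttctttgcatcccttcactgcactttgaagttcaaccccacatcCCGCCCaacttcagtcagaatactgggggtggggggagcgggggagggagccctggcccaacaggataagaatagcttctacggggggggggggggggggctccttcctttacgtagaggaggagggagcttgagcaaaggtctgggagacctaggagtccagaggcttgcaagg
Col7a1, chr9:108953336-108953585, plus strand: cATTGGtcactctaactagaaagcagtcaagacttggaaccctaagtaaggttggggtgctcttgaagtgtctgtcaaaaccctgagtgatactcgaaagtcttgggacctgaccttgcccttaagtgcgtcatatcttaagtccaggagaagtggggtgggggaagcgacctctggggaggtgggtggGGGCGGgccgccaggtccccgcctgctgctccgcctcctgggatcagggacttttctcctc

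Among the 17 genes, 9 had CCAAT in a listed window, 13 had GGGCGG, 1 (Col3a1) had TATAAA, 2 (Col1a2, with 2 matches, and Col5a1) had ACGTG and 5 had GCGTG. The same motifs occurred in 33.8%, 32.7%, 12.4%, 16.6% and 28.2% of the 32851 promoter windows of this length. A match is a stretch of letters and not a measured binding site. Col6a1 and Col6a2 differed in this respect, with 0 matches in the window of Col6a1 and 1 GGGCGG match in that shown for Col6a2. A second listed window of Col6a2, not shown, held 3 GGGCGG matches and 1 GCGTG match.

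The first question was whether 6 h of hypoxia changed collagen mRNA, and whether it did so differently in triCH1 lines. No collagen gene passed the test in any hypoxia comparison. The calls at an adjusted p under 0.05 (limma, Benjamini-Hochberg over 18903 probe sets) were 0 of 20 in control lines, against a background of 0.831% of all probe sets tested. They were 0 of 20 in triCH1 lines (background 0.635%), 0 of 20 for the difference between both responses (background 0.0%) and 0 of 20 for the mean response (background 1.75%). At an unadjusted p under 0.05 there were also 0 of 20 in each, against 5.98%, 6.25%, 0.693% and 11.3% of all probe sets. The median change was -0.07 on the log2 scale in control lines and -0.09 in triCH1 lines, beside -0.04 and -0.02 over all probe sets. In bulk RNA, fewer cells of a kind and less RNA per cell cannot be told apart. These fits could miss changes of several times their errors. Plod2, described below, changed by 1.05 ± 0.24 in control lines and did not pass (adjusted p = 0.0792). The standard errors per gene lay between 0.12 and 0.48 within a line type, between 0.17 and 0.69 for the difference in response and between 0.08 and 0.34 for the mean response.

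The mean responses of the abundant fibrillar genes Col1a1, Col1a2, Col3a1, Col5a1 and Col5a2 lay between -0.14 and 0.13. Col1a1, which encodes the α1 chain of type I collagen, gave 18323, 26370 and 23136 in normoxia in flox2_1, flox1 and flox2_2, and 23596, 26375 and 15845 in hypoxia. In triCH1flox2_1, triCH1flox1 and triCH1flox2_2 it gave 21474, 21899 and 22098 in normoxia and 24779, 23611 and 13300 in hypoxia. The groups overlapped, and the lowest arrays were the hypoxia arrays of both lines whose names end in _2. Its mean response was -0.10 ± 0.16 (SE; adjusted p = 0.894).

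Col1a2, the α2 chain of type I, had group means of 29014 ± 5449 (SD, n = 3) in control normoxia, 29967 ± 5759 in control hypoxia, 26957 ± 1144 in triCH1 normoxia and 28975 ± 3591 in triCH1 hypoxia. Its mean response was 0.07 ± 0.11, with 2 ACGTG matches in the window shown above. Col3a1, the chain of type III, had 17629 ± 2406, 17432 ± 3240, 20190 ± 4473 and 20828 ± 5991 in the same order, and a mean response of 0.00 ± 0.15. Col5a1 of type V had 21457 ± 2150.0, 20896 ± 5948, 18583 ± 1914 and 16757 ± 5146, and Col5a2 had 30716 ± 4051, 33063 ± 2457, 28057 ± 2223 and 31152 ± 3725. The mean responses of Col5a1 and Col5a2 were -0.14 ± 0.17 and 0.13 ± 0.08. For all 4 genes the shift with oxygen was smaller than the SD within at least 1 of the groups compared.

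The lowest estimates in hypoxia belonged to types VI, XVIII, VII and IV, and the highest to types VIII, XII and XXVII. In control lines the 3 lowest were Col6a3 (-0.32 ± 0.45), Col6a2 (-0.22 ± 0.37) and Col4a2 (-0.21 ± 0.35), and the 3 highest were Col12a1 (0.17 ± 0.21), Col27a1 (0.15 ± 0.23) and Col8a1 (0.12 ± 0.26), each with an adjusted p of 1. In triCH1 lines the lowest were Col6a3 (-0.46 ± 0.45, adjusted p = 0.944), Col7a1 (-0.38 ± 0.25, 0.924) and Col18a1 (-0.33 ± 0.48, 0.973). The highest there were Col27a1 (0.37 ± 0.23, adjusted p = 0.908), Col8a1 (0.34 ± 0.26, 0.937) and Col12a1 (0.31 ± 0.21, 0.925). Col27a1, a fibrillar collagen of cartilage, was the 1 gene whose triCH1 hypoxia arrays (250, 255 and 298) all lay above the triCH1 normoxia arrays (164, 237 and 213), against a background of 5.64% of probe sets. No collagen gene was separated in this way in the lower direction (background 6.21%), or in control lines in either direction (backgrounds 6.97% lower and 4.66% higher).

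The difference between triCH1 and control responses was lowest for Col7a1 (-0.23 ± 0.35), Col6a3 (-0.15 ± 0.63) and Col8a2 (-0.13 ± 0.61) and highest for Col11a1 (0.37 ± 0.42), Col8a1 (0.22 ± 0.37) and Col27a1 (0.22 ± 0.32), each with an adjusted p of 1. Over both line types the mean response was lowest for Col6a3 (-0.39 ± 0.32, adjusted p = 0.726), Col18a1 (-0.27 ± 0.34, 0.854) and Col7a1 (-0.26 ± 0.18, 0.650). It was highest for Col27a1 (0.26 ± 0.16, adjusted p = 0.623), Col12a1 (0.24 ± 0.15, 0.604) and Col8a1 (0.23 ± 0.19, 0.722). With the line as a replicate block, which compares each line with itself, the count called was again 0 of 20 in all 4 hypoxia comparisons. The backgrounds in this fit were 1.4% in control lines, 1.0% in triCH1 lines, 0.0% for the difference and 3.67% for the mean response.

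Responses of the single lines differed more than the group means show. In flox2_1, triCH1flox2_1, flox1 and triCH1flox1 the median change over the 20 genes was 0.07, 0.14, 0.04 and 0.10, and in flox2_2 and triCH1flox2_2 it was -0.34 and -0.25. Over all probe sets tested the medians of the 6 lines lay between -0.05 and -0.01. In both lines named _2, 7 of 20 collagen genes were lower by more than 0.5 log2 units in hypoxia, against a background of 4.31% of all probe sets (2.58% of those whose mean reached 1000), and 0 of 20 were that much lower in both lines of any other pair. This count was chosen after the values were seen and rests on 1 pair of arrays per line, so it has no test.

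**Figure D1:**
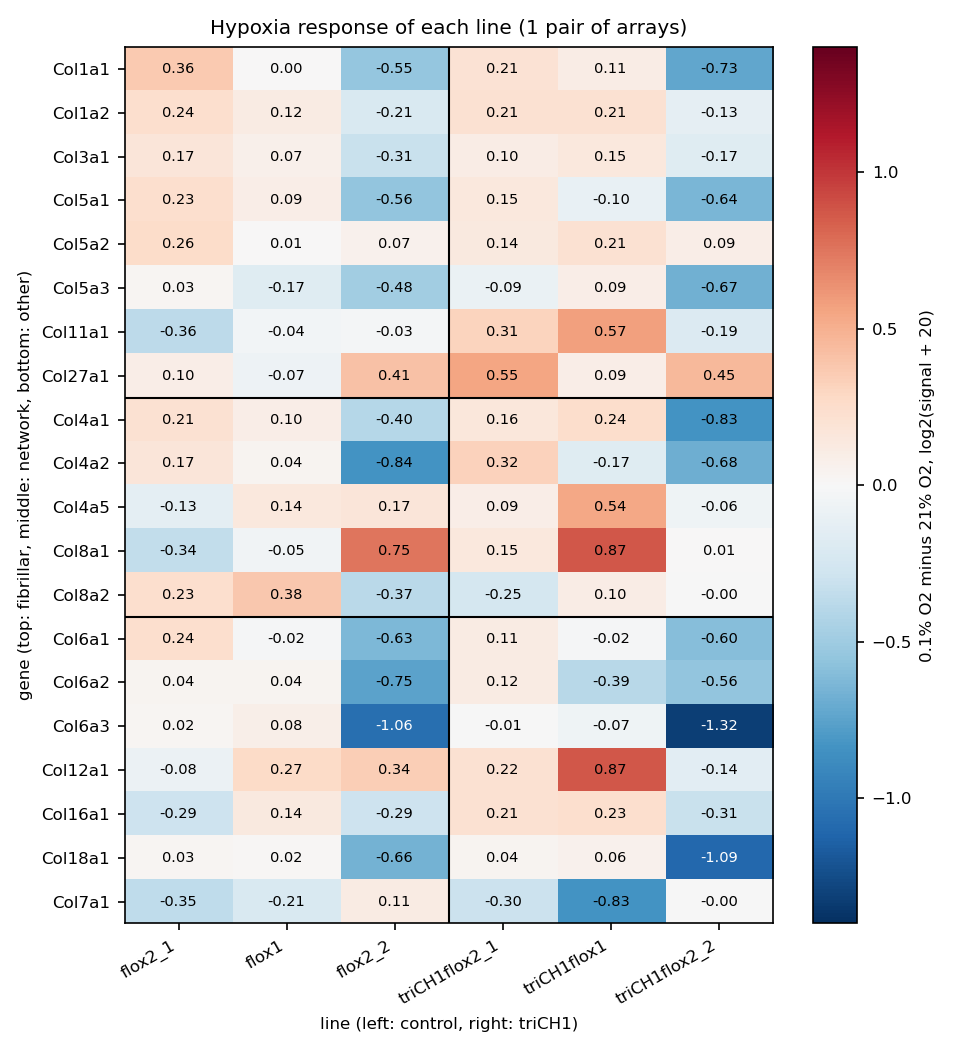
Heat map of the change from 21% to 0.1% O2 in each line, as the difference of log2(signal + 20) between 1 hypoxia and 1 normoxia array, for the 20 tested collagen genes (vertical) and 6 lines (horizontal). Blue cells gather in flox2_2 and triCH1flox2_2, where Col6a3 stood at -1.06 and -1.32.

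These 7 genes were Col1a1, Col5a1, Col4a2, Col6a1, Col6a2, Col6a3 and Col18a1. Col6a3, the long chain of type VI collagen, went from 7345 to 3519 between the arrays of flox2_2 and from 6245 to 2490 between those of triCH1flox2_2. In the other lines it went from 8008 to 8137 (flox2_1), 7069 to 7031 (triCH1flox2_1), 3078 to 3254.0 (flox1) and 3670 to 3506 (triCH1flox1). The hypoxia array of flox2_2 thus lay within the range of the flox1 and triCH1flox1 arrays, and that of triCH1flox2_2 lay below this range. The differences of Col6a3 in log2 units were -1.06 and -1.32 in the _2 lines and between -0.07 and 0.08 in the other lines.

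Col18a1, whose product yields endostatin, gave 1063 and 664 in flox2_2 and 903 and 412 in triCH1flox2_2 in normoxia and hypoxia. The other pairs were 1180 and 1207 in flox2_1, 1032 and 1059 in triCH1flox2_1, 464 and 470.3 in flox1, and 365 and 383 in triCH1flox1. On the second probe set of Col18a1 the difference was -0.90 and -0.86 in the _2 lines and -0.17 to 0.15 in the others. Col6a1 and Col6a2, which encode the shorter type VI chains, differed by -0.63 and -0.75 in flox2_2 and by -0.60 and -0.56 in triCH1flox2_2. In the same lines Col1a1 differed by -0.55 and -0.73, Col5a1 by -0.56 and -0.64, and Col4a2 by -0.84 and -0.68. Not all chains did so: Col1a2 stood at -0.21 and -0.13, Col5a2 at 0.06 and 0.09, and Col27a1 at 0.41 and 0.45.

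The hypoxia arrays of the _2 lines also had the lowest scanner background of the 12 arrays (58.96 in flox2_2 and 57.74 in triCH1flox2_2, with 60.57 to 72.99 on the other 10) and the lowest noise (2.99 and 2.93, with 3.12 to 4.23 on the others). The ratio of 3′ to 5′ actin signals was 1.138 and 1.172 on these arrays and 1.101 to 1.170 on the other 10, and that of Gapdh was 0.782 and 0.812, beside 0.737 to 0.803, so that triCH1flox2_2 had the highest value of both. Summed fibroblast markers on these arrays were 98786 and 86505, beside 83479 to 97270 on the other hypoxia arrays. The part of background, noise and RNA quality in these differences was not tested. Without both _2 lines, an alternative added after the data were seen, the mean responses of Col6a3 and Col18a1 were 0.01 and 0.04. These small values follow from the pairs of the other lines given above and are no separate evidence.

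The next comparison asked how triCH1 lines differed from control lines at each oxygen level. Most collagen estimates were below 0 (18 of 20 in normoxia and 17 of 20 in hypoxia, with medians of -0.20 and -0.19). Over all probe sets 47.4% and 44.5% were below 0, and the medians were 0.02 and 0.03. None of the 20 passed the test: 0 of 20 were called in normoxia (background 0.00529%), 0 of 20 in hypoxia (background 0.0741%) and 0 of 20 on line means (background 0.0%), where each line counts once. At an unadjusted p under 0.05 there were 3, 3 and 5 of 20, against 7.56%, 7.97% and 9.83% of all probe sets. With the line as a random replicate block the counts called in normoxia and hypoxia were 0 of 20 too (backgrounds 0.0159% and 0.0952%).

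**Figure D2:**
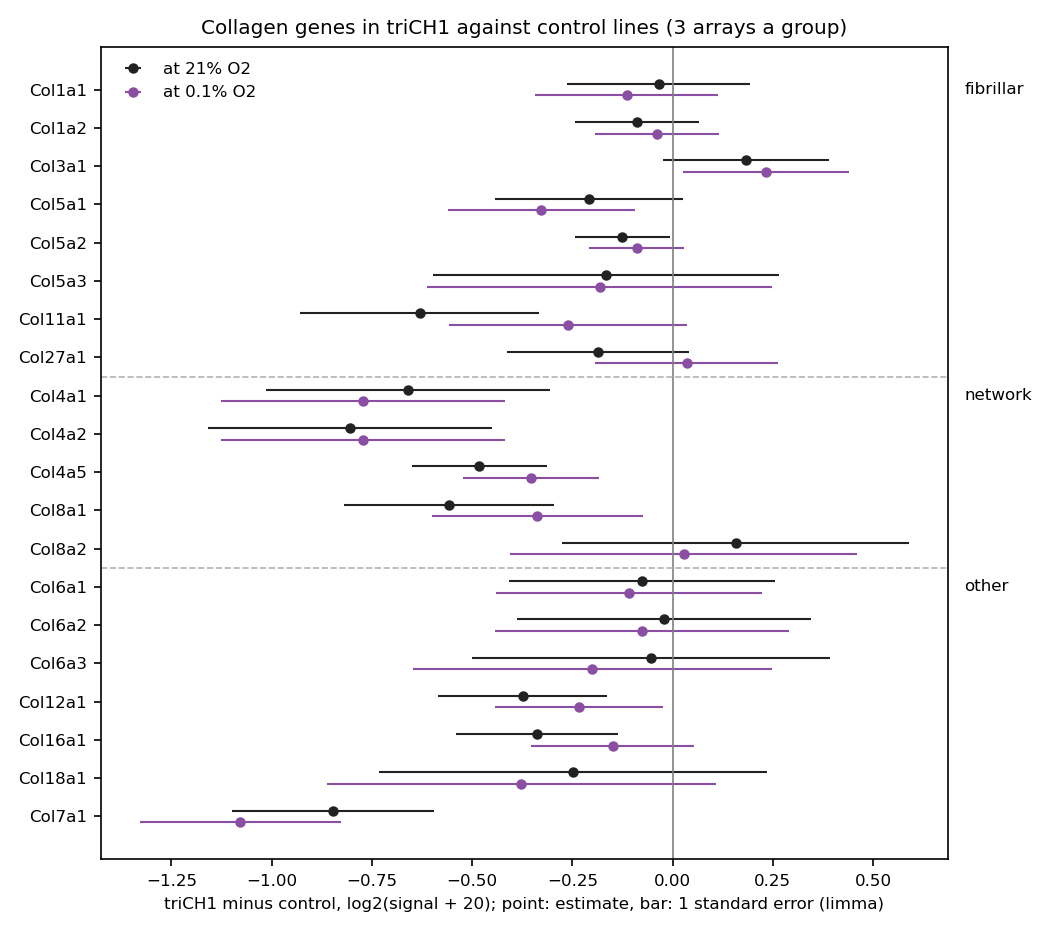
Difference between triCH1 and control lines on the log2(signal + 20) scale (horizontal) for each tested collagen gene (vertical, by type), at 21% O2 in black and at 0.1% O2 in purple. Points are estimates from 3 arrays a group and bars are 1 standard error from limma. Col4a1, Col4a2 and Col7a1 lie farthest to the left, and none passed the test.

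Col7a1, the chain of anchoring fibrils, had the lowest estimate in each of these comparisons. In flox2_1, flox1 and flox2_2 its signals were 513, 438 and 330.3 in normoxia and 398, 377 and 358 in hypoxia. In triCH1flox2_1, triCH1flox1 and triCH1flox2_2 they were 173, 273 and 240.3 in normoxia and 137, 144 and 240 in hypoxia. All 6 triCH1 arrays lay below all 6 control arrays. The estimate was -0.85 ± 0.25 in normoxia (adjusted p = 0.377), -1.08 ± 0.25 in hypoxia (0.190) and -0.96 ± 0.20 on line means (0.235), none past the threshold. Over the alternatives its adjusted p on line means lay between 0.0624 and 0.636.

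Groups that did not overlap were counted as well. In normoxia the triCH1 arrays lay below the control arrays for 2 of 20 genes, Col7a1 and Col4a5 (background 4.64%), and in hypoxia for 3 of 20, Col7a1, Col4a5 and Col12a1 (background 6.05%). On line means they did so for 3 of 20, Col7a1, Col4a5 and Col8a1 (background 6.38%). No gene was separated in the higher direction (backgrounds 6.18%, 7.1% and 8.09%). Col4a5, an X-linked type IV chain (chrX:141475370-141689236), had means of 2442 ± 366 and 1733 ± 132 (SD, n = 3) in control and triCH1 normoxia and 2530.0 ± 66.9 and 2005 ± 408 in hypoxia. Its triCH1 estimates were -0.48 in normoxia, -0.35 in hypoxia and -0.42 on line means. They were smaller on its second probe set (-0.28, -0.16 and -0.22). There the line means overlapped, with 690 in flox2_2 and 724 in triCH1flox2_1. Col12a1, a fibril-associated chain, had 3600.3 ± 757 and 2834 ± 886 in normoxia and 4015 ± 280 and 3406 ± 94.6 in hypoxia.

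Col4a1 and Col4a2, the head-to-head pair that makes the common type IV trimer, were lower in some triCH1 lines but not in all. Col4a1 gave 10102, 8323 and 9752 in normoxia and 11694, 8891 and 7405 in hypoxia in flox2_1, flox1 and flox2_2. It gave 4119 and 4602 in triCH1flox2_1, 5706 and 3196 in triCH1flox2_2, and 8818 and 10425 in triCH1flox1. All 4 arrays of triCH1flox2_1 and triCH1flox2_2 lay below the 6 control arrays, and triCH1flox1 lay among the controls. Its estimates were -0.66 ± 0.35 in normoxia (adjusted p = 0.744), -0.77 ± 0.35 in hypoxia (0.624) and -0.72 ± 0.29 on line means (0.474).

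Col4a2 was low in the same 2 triCH1 lines. It gave 3550.2, 3615 and 4326 in normoxia and 3995, 3720 and 2408 in hypoxia in flox2_1, flox1 and flox2_2, and 1472 and 1840 in triCH1flox2_1, 1908 and 1183 in triCH1flox2_2, and 3664 and 3244 in triCH1flox1. Again both triCH1 lines with floxed Ep300 were below every control array and triCH1flox1 was within the control range. Its estimates were -0.80 ± 0.35 (adjusted p = 0.649), -0.77 ± 0.35 (0.624) and -0.79 ± 0.28 (0.416). The second probe set of Col4a1 gave estimates of -0.76, -0.68 and -0.72, close to those of the first.

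The line triCH1flox1 decided whether this pair was called. Without it, Col4a1 and Col4a2 passed on line means (-1.10, adjusted p = 0.0110, and -1.16, adjusted p = 0.00906), as they did in hypoxia (-1.25, 0.0173, and -1.15, 0.0422), and Col4a2 passed in normoxia (-1.18, 0.0397). Calls over all probe sets rose in the same fits, from 0.0% to 2.64% on line means, from 0.0741% to 1.46% in hypoxia and from 0.00529% to 1.3% in normoxia. Within the lines that carry floxed Ep300 alone, 2 control against 2 triCH1, the line-mean estimates were -1.15 and -1.14 (adjusted p = 0.0434 for both, with 0.503% of all probe sets called). In the same lines 0 of 20 collagen genes were called in normoxia (background 0.196%) and 0 of 20 in hypoxia (background 0.227%). With the floxed gene as a covariate over all 6 lines, 0 of 20 were called in normoxia, in hypoxia and on line means (backgrounds 0.466%, 0.682% and 0.413%). Over all 17 alternatives the adjusted p on line means lay between 0.0110 and 0.954 for Col4a1 and between 0.00906 and 0.934 for Col4a2. The genotype, the floxed gene and the embryo of triCH1flox1 cannot be told apart here. Beside these values, 7 of 9 fibroblast markers had a lower mean in triCH1 than in control lines at either oxygen level and 2 (Prrx1 and Pdgfra) a higher one. Thy1 differed most among the lower ones (6050 and 2972 in control and triCH1 normoxia, 5764 and 2738 in hypoxia), Prrx1 had 4262 and 4855 in normoxia and 5029 and 5928 in hypoxia, and the sum of the list lay between 76056 and 98786 in control and 80238 and 86505 in triCH1 arrays. The 6 endothelial markers summed to at most 235 on any array. Their part in the type IV levels was not tested.

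The remaining high and low estimates were smaller. Col3a1 was the highest in normoxia (0.18 ± 0.21, adjusted p = 0.962), in hypoxia (0.23 ± 0.21, 0.795) and on line means (0.21 ± 0.18, 0.752). Col8a2, a short-chain network collagen of vessel walls and cornea, had 0.16 ± 0.43 (adjusted p = 0.992), 0.03 ± 0.43 (0.991) and 0.09 ± 0.37 (0.968), from signals of only 49.1 to 162. Col6a2 stood at -0.02 ± 0.37 in normoxia (adjusted p = 0.997) and -0.05 ± 0.30 on line means (0.979), and Col27a1 at 0.03 ± 0.23 in hypoxia (0.980). By class, the median triCH1 estimate on line means was -0.09 for 8 fibrillar genes, -0.72 for 3 type IV genes, -0.09 for 3 type VI genes and -0.27 for 2 fibril-associated genes, beside 0.03 for all probe sets.

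**Figure D3:**
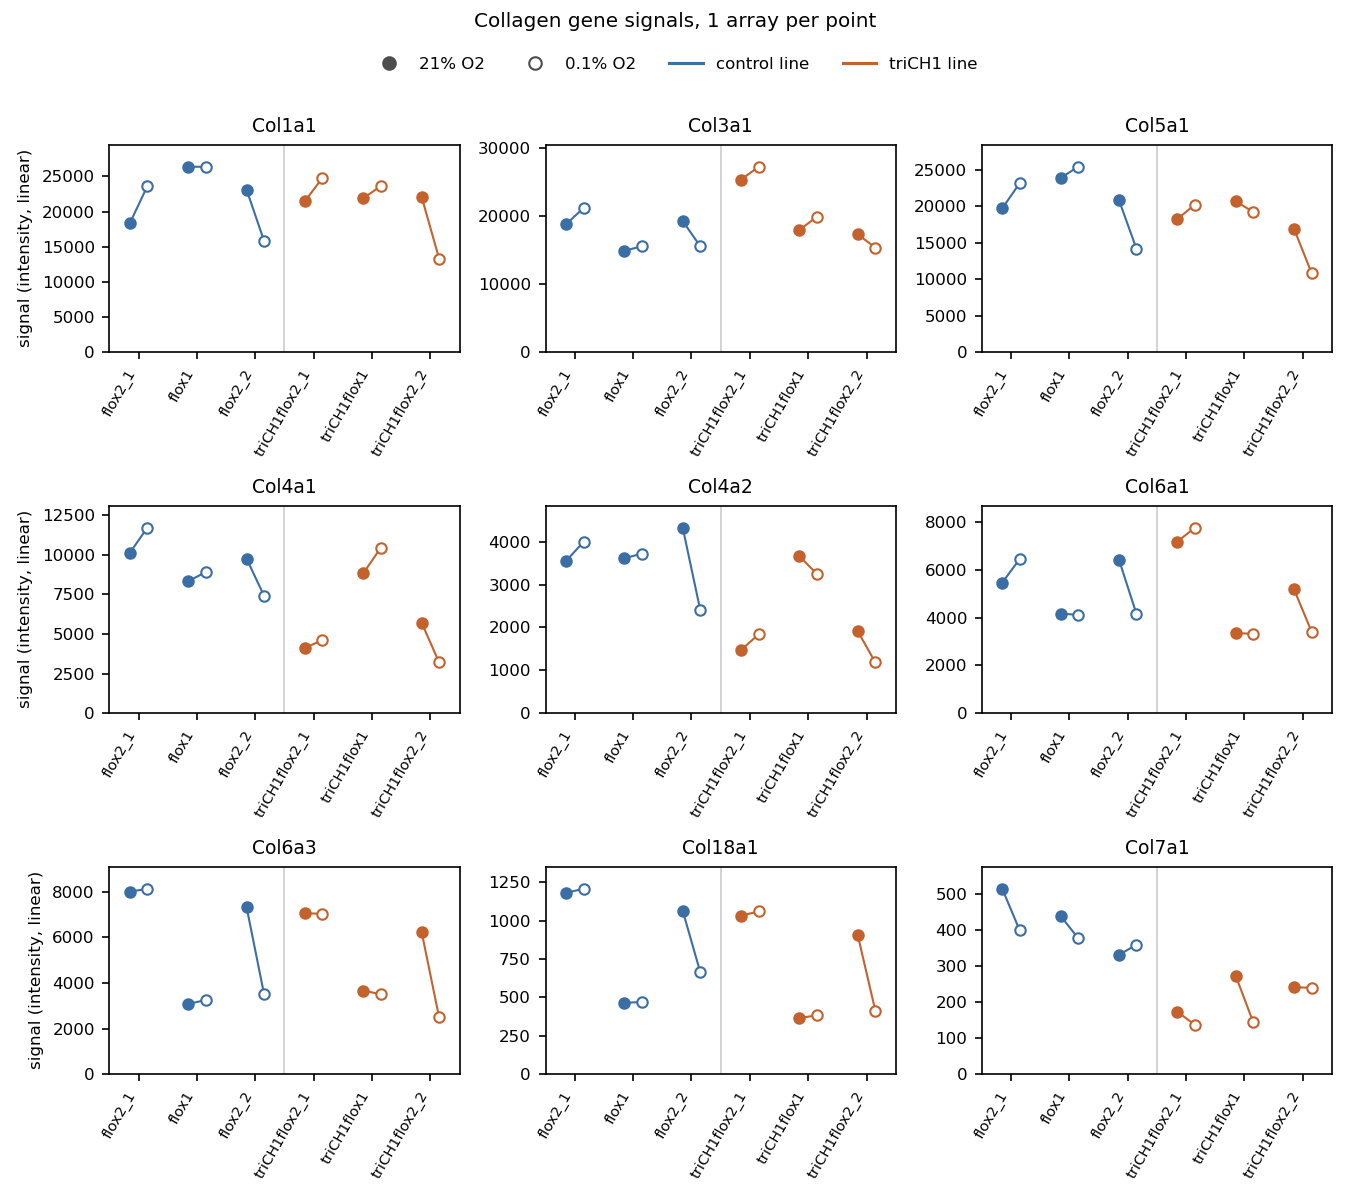
Signals (linear intensity, axis from 0) of 9 collagen genes in 6 lines, with filled points for 21% O2 and open points for 0.1% O2, 1 array per point, control lines in blue and triCH1 lines in orange. Col4a1 and Col4a2 are low in triCH1flox2_1 and triCH1flox2_2, Col7a1 is low in all 3 triCH1 lines, and Col6a3 and Col18a1 are lower in hypoxia in both lines named _2.

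Differences among the 6 lines were then tested directly, with oxygen level as a covariate, by limma's moderated F test. In this test 10 of 20 collagen genes were called, against a background of 15.8% of all probe sets, 17.4% of 10059 genes at 1 probe set each, and 19.6% and 20.5% of probe sets whose mean reached 500 and 1000. By type these were 3 of 8 fibrillar, 2 of 3 type IV, 0 of 2 type VIII and 3 of 3 type VI genes, together with Col18a1 and Col7a1. The count was 5 without triCH1flox2_1, where Col5a3, Col4a1, Col4a2, Col18a1 and Col11a1 remained and Col7a1, Col3a1 and the 3 type VI genes did not pass, and 14 without flox2_2. The background moved the same way, to 7.64% without triCH1flox2_1 and 19.8% without flox2_2. The lines differ in embryo, genotype and floxed gene, which cannot be told apart by this test.

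**Figure D4:**
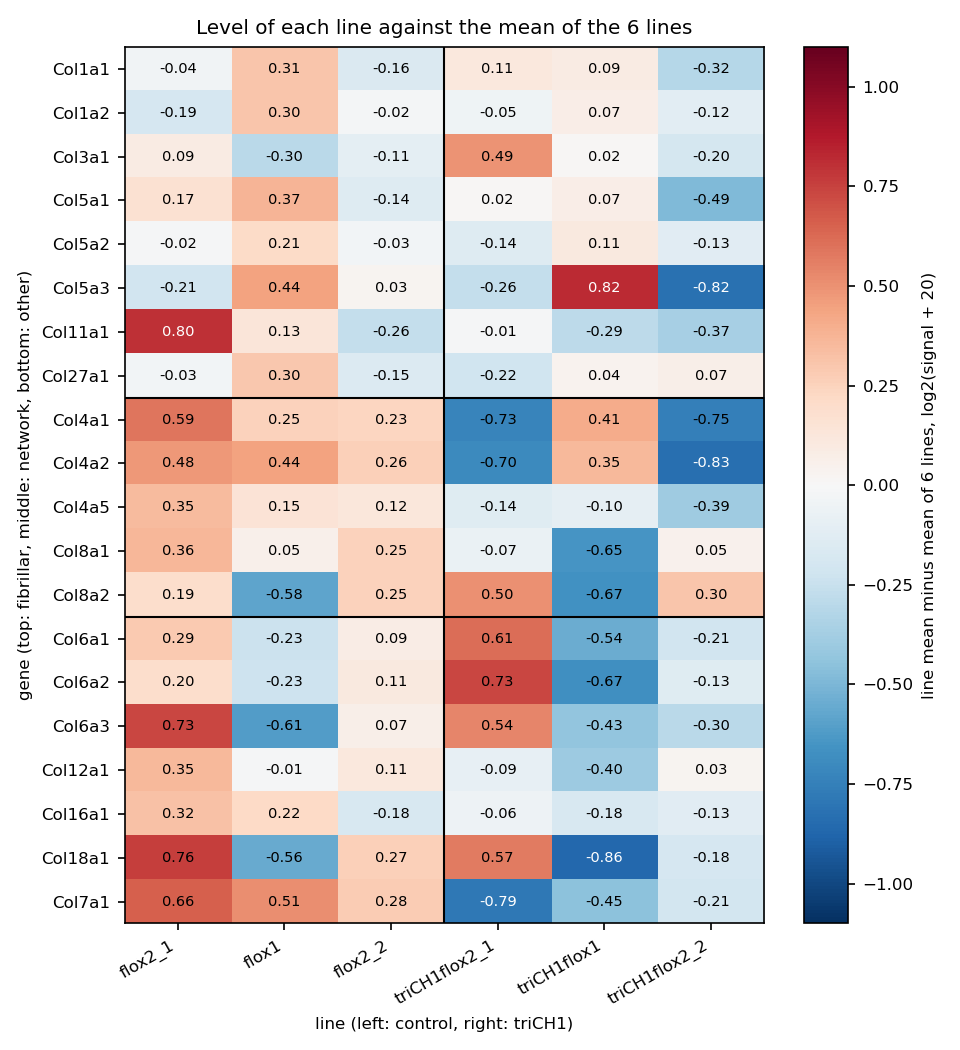
Heat map of the level of each line (mean of its 2 arrays, log2(signal + 20)) minus the mean of the 6 lines, for the 20 tested collagen genes (vertical) and the lines (horizontal, control left and triCH1 right). Type IV genes Col4a1 and Col4a2 range from -0.83 to 0.59, and type VI genes and Col18a1 are lowest in flox1 and triCH1flox1.

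Type IV genes were among those that differed most. Line means of Col4a1 were 10898, 8607 and 8579 in flox2_1, flox1 and flox2_2, and 4360.0, 9622 and 4451 in triCH1flox2_1, triCH1flox1 and triCH1flox2_2 (F = 14.74, adjusted p = 0.00129). Those of Col4a2 were 3773, 3667 and 3367 in the control lines and 1656, 3454 and 1546 in the triCH1 lines in the same order (F = 12.41, adjusted p = 0.00262). For Col4a2 the highest line exceeded the lowest by 2.44 times. Col4a5 did not pass (F = 4.64, adjusted p = 0.0612).

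On means over both oxygen levels, the type VI genes and Col18a1 shared a different order of lines. Col6a2 had line means of 5980, 4455 and 5809 in flox2_1, flox1 and flox2_2 and of 8692, 3298 and 4848 in the triCH1 lines of the same numbers (F = 11.59, adjusted p = 0.00337). Col6a1 had 5965, 4146, 5295, 7479, 3340.4 and 4301 in that order (F = 8.70, adjusted p = 0.00931), and Col6a3 had 8072, 3166, 5432, 7050, 3588 and 4367 (F = 6.88, adjusted p = 0.0202). Col18a1 had 1193, 467, 864, 1045, 374 and 658 (F = 11.29, adjusted p = 0.00372), a ratio of 3.19 between the highest and lowest line. On these means flox1 and triCH1flox1 were the 2 lowest lines for each of these 4 genes, and flox2_1 and triCH1flox2_1 the 2 highest. At single oxygen levels the order was not the same. In normoxia flox1 and triCH1flox1 were still the 2 lowest, but flox2_2 stood above flox2_1 for Col6a1 (6432 and 5468.5) and Col6a2 (7283 and 5906). It also stood above triCH1flox2_1 for Col6a3 (7345 and 7069) and Col18a1 (1063 and 1032). In hypoxia triCH1flox2_2 was the lowest line for Col6a3 (2490, with 3254 in flox1 and 3506 in triCH1flox1). It was also below flox1 for Col6a1 (3417.5 and 4119), Col6a2 (3920 and 4518) and Col18a1 (412 and 470).

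Col6a2, Col6a1 and Col18a1 also lie near each other on chromosome 10 (chr10:76595756-76623630, chr10:76708792-76726044 and chr10:77052178-77166530, all on the minus strand), whereas Col6a3 is on chromosome 1 (chr1:90766860-90844001). Read by floxed gene on line means, both lines with floxed Crebbp lay below all 4 lines with floxed Ep300 for 5 of 20 collagen genes. These were Col6a1, Col6a2, Col6a3, Col18a1 and Col8a2, beside 15.8% of all probe sets. In the other direction 3 of 20 (Col1a2, Col5a2 and Col5a3) were separated, beside 11.7%. This reading was added after the line values were seen, and the shares of 5 and 3 in 20 are not far from the background.

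Among fibrillar genes, Col5a3, the minor chain of type V, differed most (F = 14.95, adjusted p = 0.00121), with line means of 654, 1037 and 786 in flox2_1, flox1 and flox2_2 and 629, 1354 and 433 in triCH1flox2_1, triCH1flox1 and triCH1flox2_2. Col3a1 was highest in triCH1flox2_1 (26285) and lowest in flox1 (15216), a ratio of 1.73 (F = 9.95, adjusted p = 0.00581). Col11a1, a chain that nucleates fibrils in cartilage, stood at 2683 in flox2_1 and between 1175 and 1665 in the other lines (F = 8.78, adjusted p = 0.00906), and it did not pass without flox2_1 (adjusted p = 0.229). Col7a1 was highest in flox2_1 (456) and lowest in triCH1flox2_1 (155; F = 9.96, adjusted p = 0.00580), and it did not pass in a fit with a hypoxia response for each line type (0.0982).

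On the main probe sets, the fibrillar genes Col5a2, Col1a2 and Col1a1 varied less among lines than Col3a1 and Col5a1. The ratio of the highest to the lowest line was 1.28 for Col5a2 and 1.49 for Col1a1, and Col1a2 ran from 25146 in flox2_1 to 35167 in flox1. None of these passed (adjusted p = 0.0765, 0.262 and 0.0831), though the second probe sets of Col1a1 and Col1a2 did (0.0295 and 0.0277). On the second probe set of Col1a1 line means spread more widely, from 3186 in triCH1flox2_2 to 5983 in flox1. The order of these genes thus depends on the probe set read. Col5a1 lay at the threshold with an adjusted p of 0.0501 and line means from 13864 in triCH1flox2_2 to 24621 in flox1. Its ratio was 1.78, and its further probe sets gave 0.0282, which passed, and 0.138, which did not. Col12a1 (adjusted p = 0.157), Col16a1 (0.244), Col8a1 (0.0663), Col8a2 (0.0959) and Col27a1 (0.572) did not pass either, while further probe sets of Col12a1 (0.0241) and Col8a1 (0.0188) did.

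The clearest changes with oxygen in the collagen lists were those of P4ha2, Plod2 and P4ha1, which modify collagen chains. Of 18 tested genes for collagen modification and folding, 1 rose in control lines, 2 in triCH1 lines and 3 in the mean response, and 0 fell. The backgrounds called in either direction were 0.831%, 0.635% and 1.75% of all probe sets. The medians of the list were 0.07, 0.05 and 0.05, beside -0.04, -0.02 and -0.03 over all probe sets, so the list as a whole changed little. P4ha2, the catalytic subunit of a prolyl 4-hydroxylase, gave 2673, 2893 and 2476 in normoxia and 8217, 8504 and 6222 in hypoxia in flox2_1, flox1 and flox2_2. In triCH1flox2_1, triCH1flox1 and triCH1flox2_2 it gave 2111, 2245 and 1836 in normoxia and 4871, 5385 and 3539 in hypoxia. Signals were higher in hypoxia in every line and the oxygen groups did not overlap, with changes of 1.49 ± 0.18 in control lines (adjusted p = 0.000268) and 1.13 ± 0.18 in triCH1 lines (0.00473).

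Plod2, a lysyl hydroxylase that prepares collagen for crosslinking, rose by 1.21 ± 0.24 in triCH1 lines (adjusted p = 0.0369), while its change of 1.05 ± 0.24 in control lines did not pass (0.0792). Over both line types its mean response was 1.13 ± 0.17 (adjusted p = 0.00192), from 0.47 in flox2_1 to 1.86 in flox2_2. P4ha1, the other main prolyl 4-hydroxylase subunit, passed in the mean response (0.64 ± 0.12, adjusted p = 0.0134). The 3 genes were higher in hypoxia in all 6 lines. In flox2_2 and triCH1flox2_2, where 7 collagen genes were lower by more than 0.5, P4ha2 was higher by 1.32 and 0.94.

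No member of the other collagen lists passed a hypoxia test. This held for 9 tested genes of procollagen processing and crosslinking, 11 fibril assembly partners, 5 collagen receptors, 8 genes of collagen breakdown and 10 basement membrane partners. Their median mean responses were 0.02, -0.03, 0.13, -0.03 and -0.13, beside -0.03 for all probe sets. The basement membrane partners had medians of -0.49 in flox2_2 and -0.55 in triCH1flox2_2 and of -0.03 to 0.07 in the other 4 lines. For the modification and folding list the medians of the _2 lines were 0.02 and 0.11. Between triCH1 and control lines none of these lists had a member past the test, with 0 called in normoxia, hypoxia or on line means.

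The 20 collagen genes below a mean of 100 had mean signals of 8.5 to 92.3. Col15a1, the multiplexin related to Col18a1, was among them, with a mean of 78.7 and single arrays from 8.1 to 169. The highest of the others were Col4a6 (92.3), Col22a1 (90.2) and Col14a1 (85.1), and the lowest were Col9a3 (13.5) and Col24a1 (8.5). The cartilage chains Col9a1, Col9a2, Col9a3 and Col11a2, the type IV chains Col4a3 and Col4a4 of kidney filters, the type VI chains Col6a4 and Col6a5, Col19a1, Col20a1, Col26a1 and the transmembrane Col13a1, Col17a1, Col23a1 and Col25a1 made up the rest. Of these 20 genes, 8 exceeded 100 on at least 1 array, so a low mean does not show that a chain was absent.

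Several genes could be read on more than 1 tested probe set. For 13 genes there were 15 further probe sets, and the sign of the triCH1 estimate was the same as that of the main probe set for 15 of 15 in normoxia and on line means and for 12 of 15 in hypoxia. For the mean hypoxia response it was the same for 11 of 15. The 2 further probe sets of Col5a1 differed between hypoxia and normoxia by -0.75 and -0.87 in flox2_2 and by -0.80 and -1.19 in triCH1flox2_2, in the same direction as the first. The second probe set of Col6a2 differed by -0.89 in flox2_2 and by -0.24 in triCH1flox2_2, where the first stood at -0.56. The second probe set of Col1a1, with a mean of 4592, differed by -0.15 and -0.26 there, less than the first. For differences among lines the second probe set of Col11a1 did not pass (adjusted p = 0.124).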

How the data were processed

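RNA of 12 fibroblast cultures had been hybridised to 1-colour Mouse430_2 arrays. The deposited files hold, per the labels, 1 linear intensity for each probe set, computed by Affymetrix's Statistical algorithm and scaled by the authors to a target of 500. The software version and detection calls are not given in the sources used here. Trimmed means of 500.0 on every array were found on the values. Scale factors lay between 2.57 and 4.28.

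Of 45101 probe sets, 64 controls were left out. Symbols came from the array's annotation table (34945 probe sets with 1 symbol, 932 with several, 9160 with none), and all 40 collagen genes matched RefSeq (GRCm38.p6) by gene ID. The 18903 probe sets whose mean reached 100 were tested as log2(signal + 20) in limma 3.58.1 under R 4.3.3 (lmFit, then eBayes with trend), with 1 mean per group over all 12 arrays. Line means (3 against 3) and a moderated F test among 6 lines were fitted separately. Adjustment was by Benjamini-Hochberg over all tested probe sets, two-sided, with 0.05 as the threshold. Errors of log2 changes are standard errors, and those of signals are standard deviations. The number of arrays limits the precision. Changes are on the log2(signal + 20) scale, which understates those of dim genes, and signals are compared within a probe set only.

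Arrays of the same line come from the same embryos, so lines pair the arrays. After removal of group means the correlation within a line was 0.28 in flox2_1, 0.58 in triCH1flox2_1, 0.47 in flox1, 0.54 in triCH1flox1, -0.02 in flox2_2 and 0.35 in triCH1flox2_2. Fits with the line as a replicate block were alternatives.

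The members, gene lists and tests were chosen with earlier results of these data known. Named genes are every collagen gene called in any test, the 3 highest and 3 lowest estimates per contrast, a preset group of abundant chains, and up to 4 members of each pathway list called in a hypoxia contrast. Other names were chosen after their values were seen. The scripts were tested on simulated data. As alternatives, the pseudocount was set to 1 or 100 and the minimum mean to 0 or 200. Further fits used quantile normalization, median centring, no variance trend, a robust fit or the mean over a gene's probe sets. Others took lines carrying floxed Ep300 alone, the floxed gene as a covariate or a hypoxia response for each line type. The last fits were run without each line or array.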

Additional observations from a re-analysis of the deposited data

How the results depend on the processing

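The counts of collagen genes called for hypoxia stayed at 0 under every alternative run, with the replicate block for line included (0 of 20 in each hypoxia comparison and between line types). Leaving out single lines or arrays gave 0 to 1 called in normoxia, 0 to 2 in hypoxia and 0 to 2 on line means for triCH1 against control, with calls of Col4a1 and Col4a2 only without triCH1flox1, and 5 to 14 for differences among lines. With lines carrying floxed Ep300 alone, 2 were called on line means (0.503% of all probe sets, 0.0% with all lines). There 0 were called between line types in normoxia and 0 in hypoxia (0.196% and 0.227% of all probe sets). With the floxed gene as a covariate 0 were called in normoxia, in hypoxia and on line means (0.466%, 0.682% and 0.413%). Without a variance trend 7 were called among lines (10.2% of all probe sets, 15.8% with it), and Col3a1 (adjusted p = 0.0994), Col6a1 (0.0778), Col6a3 (0.119) and Col11a1 (0.0536) did not pass. The count of 7 genes lower in both _2 lines was 5 after median centring and 6 with the mean over probe sets. The cause of these shifts was not tested.

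Several hypoxia estimates, those of Col6a3 and Col18a1 among the lowest, and triCH1 estimates near 0 changed sign. Without both _2 lines, an alternative added after the data were seen, the response in control lines was 0.05 for Col6a3, 0.04 for Col6a2, 0.11 for Col4a2 and -0.20 for Col8a1, that of Col18a1 in triCH1 lines was 0.05, and mean responses were 0.01 for Col6a3 and 0.04 for Col18a1. The triCH1 estimates were then 0.13 for Col6a2 in normoxia and -0.08 for Col8a2 and -0.07 for Col27a1 in hypoxia. With floxed Ep300 alone, Col6a2 was 0.08 in normoxia and 0.15 on line means. In hypoxia Col8a2 was -0.01 and Col27a1 -0.00 after median centring, and Col27a1 was -0.03 after quantile normalization and -0.14 with the mean over probe sets.

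Omission of single lines or arrays gave these ranges in control-line hypoxia: -0.76 to 0.05 for Col6a3, -0.42 to 0.04 for Col6a2, -0.40 to 0.11 for Col4a2, -0.20 to 0.35 for Col8a1 and -0.02 to 0.33 for Col27a1. In triCH1-line hypoxia they were -0.79 to 0.05 for Col18a1 and -0.00 to 0.56 for Col8a1, and for the difference in response -0.56 to 0.29 for Col6a3, -0.52 to 0.21 for Col8a2 and -0.12 to 0.54 for Col8a1. For triCH1 against control they were, in normoxia, -0.30 to 0.27 for Col6a2 and -0.19 to 0.55 for Col8a2, in hypoxia, -0.16 to 0.35 for Col8a2 and -0.04 to 0.11 for Col27a1, and on line means, -0.43 to 0.28 for Col6a2 and -0.17 to 0.45 for Col8a2. Others kept their sign but moved by more than 1.5 times, among them, in triCH1-line hypoxia, Col6a3 (-0.88 to -0.04), Col7a1 (-0.61 to -0.15) and Col12a1 (0.04 to 0.54), and Col12a1 in control-line hypoxia (0.07 to 0.34). Of 42 named estimates, 5 stayed within 1.5 times of their value. An arm left with 2 arrays shares the spread of the other groups.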

Other observations

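Several partners of collagen differed more among the 6 lines than the chains themselves. These genes were named after their values were seen, and the calls are those of limma's moderated F test over all probe sets. Lum, the proteoglycan lumican that binds fibrils, had line means of 245, 150 and 438 in flox2_1, flox1 and flox2_2 and of 3974, 299 and 808 in triCH1flox2_1, triCH1flox1 and triCH1flox2_2 (F = 81.3, adjusted p = 6.89e-07). Dcn, which encodes decorin, was likewise highest in triCH1flox2_1 (738, with 59.2 to 263 in the other lines, adjusted p = 0.00103). Fmod, or fibromodulin, ran from 207 in triCH1flox1 to 2516 in triCH1flox2_1 (F = 77.6, adjusted p = 8.82e-07). In all, 9 of 11 fibril assembly partners and 6 of 8 genes of collagen breakdown were called in this test, beside 10 of 20 collagen genes and 15.8% of all probe sets.

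Lamb1, a laminin chain of basement membranes, had the same 2 low lines as Col4a1 and Col4a2. Its line means were 4933, 5840.4 and 3966 in flox2_1, flox1 and flox2_2, and 2253, 5176 and 2069 in triCH1flox2_1, triCH1flox1 and triCH1flox2_2 (F = 18.2, adjusted p = 0.000570). Lama5 and Hspg2, which encode a laminin chain and perlecan, were lower in hypoxia in both lines named _2. Hspg2 went from 1255 to 374 in flox2_2 and from 1031 to 285 in triCH1flox2_2, while in the other 4 lines its signals lay between 1163 and 1480.4. Lama5 differed by -1.30 and -1.14 in these lines and by -0.25 to 0.19 in the others. These differences rest on 1 pair of arrays per line and were not tested.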
